A study of Homo sapiens with 12 samples.

Results

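HeyA8-MDR, the drug-resistant derivative of the human ovarian cancer cell line HeyA8, was compared with its parent in RNA-seq libraries prepared with and without quinacrine (QC). Members were chosen by sample label: the HeyA8-MDR vehicle library was set against the HeyA8 vehicle library, and the HeyA8-MDR QC library against the HeyA8 QC library, 4 of the 12 libraries of the series. QC, an antimalarial drug, was given at 8 µM for 6 h in growth medium, and vehicle libraries came from parallel cultures that received buffer. The labels call HeyA8 sensitive and HeyA8-MDR resistant to chemotherapy. The study's methods describe HeyA8-MDR as carboplatin-resistant, grow both lines in the same DMEM with serum and name no clone, passage or drug in the medium. The other 8 libraries are the vehicle and QC libraries of the pairs SKOV3 with SKOV3-TR and OV2008 with OV2008-C13. There was 1 library for each line and treatment, so a HeyA8 pair has no replicate of its own. The p-values measure the spread left over across all 6 lines. That spread is how far the QC response varied among the sensitive and among the resistant lines, not variation between cultures.

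Cancer cell lines made resistant by stepwise drug exposure often carry more of an ATP-driven efflux pump, of which P-glycoprotein, encoded by ABCB1, is the best known. P-glycoprotein exports taxanes, anthracyclines and vinca alkaloids but handles platinum drugs poorly. The ABCB1 gene lies on the long arm of chromosome 7 and can be amplified together with its neighbours in resistant lines. Chemoresistant lines can also differ from their parents in extracellular matrix, interferon-stimulated and inflammatory genes, which are the groups described here.

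Counts on genes totalled 24668935 in HeyA8 vehicle, 30585059 in HeyA8 QC, 21206002 in HeyA8-MDR vehicle and 20475386 in HeyA8-MDR QC. Levels are given as CPM, read counts brought to a common library size after TMM normalisation. Of 18 measured markers of ovarian and Müllerian epithelium, 9 to 11 reached 1 CPM in each of the 4 libraries; PAX8, KRT7, KRT8 and KRT18 were high, and CDH1, MUC16, FOLR1 and WFDC2 stayed under 1 CPM. The 1 measured leukocyte marker was at 0.27 to 1.3 CPM. Of 6 endothelial markers, 3 or 4 reached 1 CPM, with a summed level of 706 to 809 CPM that was mostly TIE1.

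The HeyA8 QC library stood apart from the other 3. Among genes with at most 1 count in HeyA8 vehicle and at least 30 counts in both HeyA8-MDR libraries, 15 of 15 had more than 1 count in HeyA8 QC, at 16.1% to 87.0% of the HeyA8-MDR level (median 50.6%). WNT7A, which encodes a secreted Wnt ligand, had 0 counts in HeyA8 vehicle, 311 in HeyA8 QC, 386 in HeyA8-MDR vehicle and 420 in HeyA8-MDR QC. TMPRSS15, the intestinal enteropeptidase, had 0, 389, 389 and 422 counts in the same order. In the other direction, 25 genes that were present in HeyA8 vehicle and had at most 1 count in both HeyA8-MDR libraries stood in HeyA8 QC at 15.5% to 87.5% of their HeyA8 vehicle level (median 47.5%). The first of these comparisons, made for the other 10 libraries that had such genes, gave medians between 0% and 7.19%. The second was made for HeyA8 QC alone, on genes chosen by at least 30 counts in HeyA8 vehicle. Its median of 47.5% therefore has no counterpart in other libraries. Genes of SKOV3, SKOV3-TR, OV2008 or OV2008-C13 that were absent from the other 3 libraries of the HeyA8 family had a median of 0% in HeyA8 QC. With 1 library, a change that QC made in HeyA8 cells and the presence of HeyA8-MDR material in that library cannot be told apart. The counts of called genes, and the calls that end or appear when it is left out, are therefore described without it as well, for some lists without a count.

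**Figure D1:**
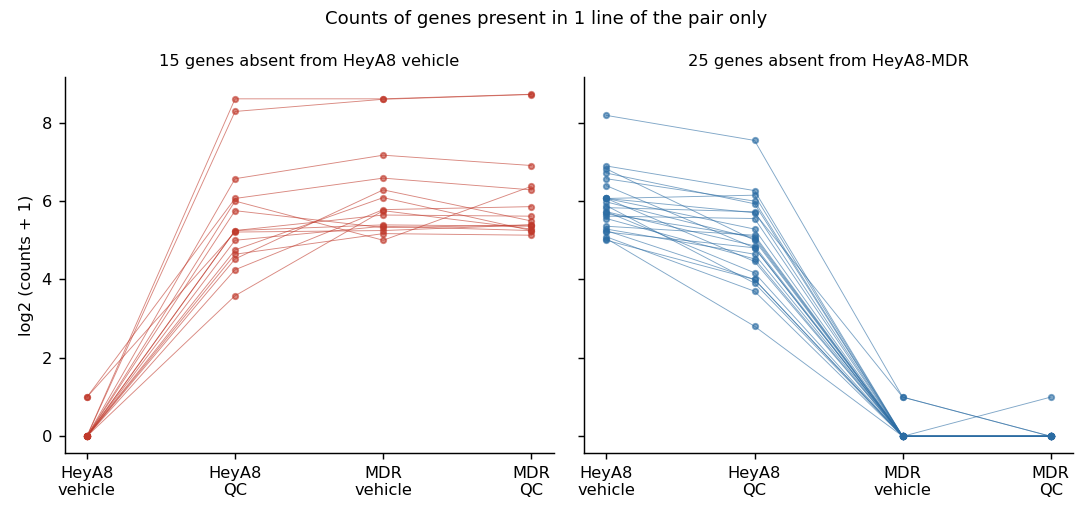
Counts, as log2 (counts + 1), of genes present in only 1 line of the pair, with 1 line per gene across HeyA8 vehicle, HeyA8 QC, HeyA8-MDR (MDR) vehicle and HeyA8-MDR QC; the left panel holds the 15 genes with at most 1 count in HeyA8 vehicle and the right panel the 25 genes with at most 1 count in both HeyA8-MDR libraries. In both panels the HeyA8 QC points lie away from 0, at a median of 50.6% of the HeyA8-MDR level on the left and 47.5% of the HeyA8 vehicle level on the right.

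Far more genes were lower than higher in HeyA8-MDR. Averaged over both treatments, 525 of 18720 genes tested (2.8%) differed between HeyA8-MDR and HeyA8 at an adjusted p under 0.05 by edgeR's quasi-likelihood test. Of these, 484 (2.59% of genes tested) were lower and 41 (0.219%) were higher in HeyA8-MDR. The imbalance varied with GC content. Among genes of higher level, split by GC content into 4 bins of equal gene number, the lowest bin held 248 lower and 4 higher calls. The highest bin held 33 lower and 15 higher. After correction for GC content and transcript length, 273 genes were called, 217 lower and 56 higher. Over all genes tested, the direction was the same in the vehicle pair and in the QC pair for 12705 (67.9%). Among the 525 it was the same for 524, which choosing genes by the mean of both pairs favours. The exception was PAPPA2, a protease that cleaves insulin-like growth factor binding proteins, which is named here after its values were seen. Its level was 138 CPM in HeyA8 vehicle and between 14.3 and 17.3 CPM in the other 3 libraries, and without HeyA8 QC its adjusted p was 0.902. Without the HeyA8 QC library 1091 genes were called, 745 lower and 346 higher, and 461 of the 525 were among them. Without the HeyA8-MDR vehicle library 15 genes were called, all lower.

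The size of the difference was larger in the vehicle pair for 464 of the 525 genes called. The median log2 difference of the genes called lower was -2.13 in the vehicle pair and -1.32 in the QC pair, and that of the genes called higher was 2.06 and 0.80. By size alone, with no test, 5515 genes (29.5% of those tested) were at least 2-fold apart in the vehicle pair and 2451 (13.1%) in the QC pair. In both pairs at once, 831 genes were at least 2-fold lower (4.44%) and 438 at least 2-fold higher (2.34%) in HeyA8-MDR. Of the genes called, 322 of 484 lower genes and 10 of 41 higher genes were at least 2-fold apart in both pairs.

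**Figure D2:**
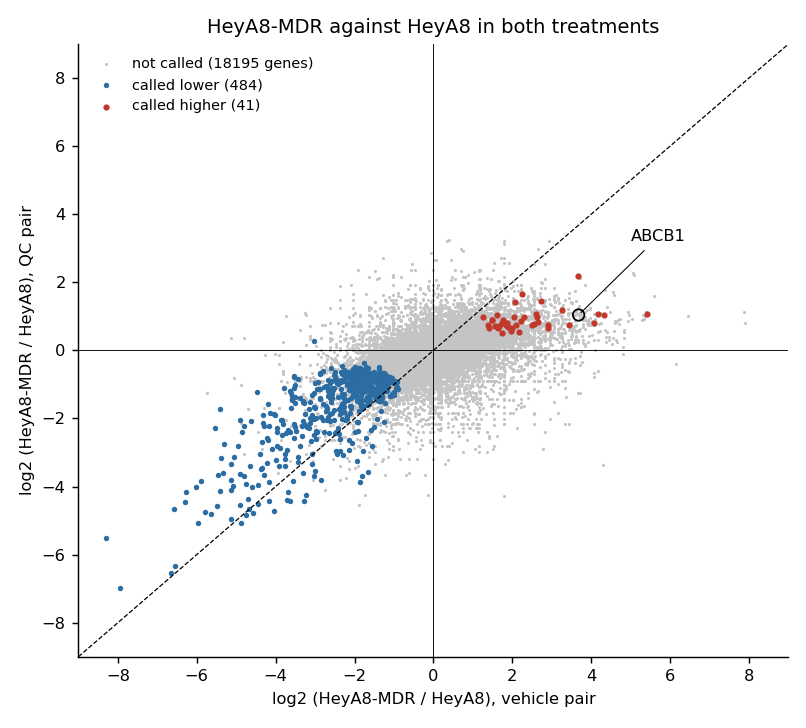
Log2 ratio of HeyA8-MDR to HeyA8 in the vehicle pair (horizontal axis) and in the QC pair (vertical axis) for each of 18720 genes; blue points are the 484 genes called lower, red points the 41 genes called higher, the dashed line marks equal differences and the circle marks ABCB1. The called genes lie on the same side of 0 in both pairs, except 1, and most lie between the dashed line and the horizontal zero line because their difference was smaller in the QC pair.

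The vehicle and QC pairs disagreed in direction for many genes of low count. Of the 5515 genes at least 2-fold apart in the vehicle pair, 1269 were at least 2-fold apart in the same direction in the QC pair, 3071 had the same direction but less than 2-fold, and 1175 (21.3%) had the opposite direction. The opposite direction was at least 2-fold in 217 genes, and in 181 of these no library of the 4 had more than 30 counts. By the test of the QC pair against the vehicle pair, 0 genes passed an adjusted p of 0.05 in edgeR, with a smallest adjusted p of 0.133. At an unadjusted p under 0.05 there were 1244 genes (6.65%), and DESeq2 called 101.

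The genes with the smallest p in that test show what the disagreement looked like. RPL26P19, a processed pseudogene of a ribosomal protein gene whose reads can be shared with its parent gene, had 23 counts in HeyA8 vehicle, 523 in HeyA8 QC, 414 in HeyA8-MDR vehicle and 30 in HeyA8-MDR QC, so that the order of the lines turned over between the pairs (adjusted p = 0.133). NGFR, the low-affinity neurotrophin receptor, had 0, 22, 114 and 10 counts (adjusted p = 0.133). SLC7A11, the cystine transporter that feeds glutathione synthesis, stood at 136 CPM in HeyA8 vehicle, 19.1 in HeyA8 QC, 7.01 in HeyA8-MDR vehicle and 17.3 in HeyA8-MDR QC. Its log2 difference was -4.26 in the vehicle pair and -0.15 in the QC pair (adjusted p of the difference between pairs = 0.379). CLGN, a chaperone gene, and SYBU, a kinesin adaptor gene, had the same shape, with log2 differences of -2.68 and -3.92 in the vehicle pair against -0.16 and -0.12 in the QC pair. CENPF and ZBTB41 stayed lower in the QC pair, with log2 differences of -2.29 and -0.84 there against -5.54 and -3.44 in the vehicle pair. C1orf116 and WNT7A were higher in HeyA8-MDR in both pairs, by log2 differences of 4.38 and 7.89 in the vehicle pair and 0.39 and 1.12 in the QC pair, and neither passed the test (adjusted p = 0.324 and 0.281). In the mean of both treatments, SLC7A11, CLGN, SYBU, C1orf116, WNT7A and TMPRSS15 were not called, and without HeyA8 QC all 6 were.

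ABCB1 had 93 counts in HeyA8 vehicle, 726 in HeyA8 QC, 1037 in HeyA8-MDR vehicle and 922 in HeyA8-MDR QC, or 4.12, 26.5, 53.9 and 54.6 CPM. Both HeyA8-MDR libraries were above both HeyA8 libraries, and HeyA8 QC lay between. The log2 difference was 3.68 in the vehicle pair and 1.04 in the QC pair. The mean difference of 1.97 ± 0.80 (SE) did not pass the test (adjusted p = 0.195), whereas without the HeyA8 QC library it was 4.51 (adjusted p = 0.00476). In the other pairs the log2 difference was 10.4 and 8.09 for SKOV3-TR against SKOV3 and -5.81 and -3.98 for OV2008-C13 against OV2008, in vehicle and QC.

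Among the ABC efflux transporters, ABCB1 included, 0 of 14 measured members were called higher and 1 was called lower, and without HeyA8 QC 3 were called higher and 0 lower. With all libraries the 1 call was 7.14% of the list, against 2.8% of all genes tested. The one called lower was ABCG2, the breast cancer resistance protein, at 2.61 and 2.34 CPM in HeyA8 vehicle and QC and 0.623 and 0.948 CPM in HeyA8-MDR (mean log2 difference -1.66 ± 0.39, adjusted p = 0.0467). This call was lost after a correction for GC content and transcript length (-1.27, adjusted p = 0.104) and without HeyA8 QC, where the difference was the same size (-1.66, adjusted p = 0.0757). ABCC1, the multidrug resistance protein MRP1, chosen with its values known, was at 82.2, 71.1, 74.8 and 75.9 CPM in HeyA8 vehicle, HeyA8 QC, HeyA8-MDR vehicle and HeyA8-MDR QC. ABCA3 and ABCG1, chosen after their values were seen, had low levels in HeyA8 vehicle (4.17 and 0.443 CPM) and like levels in the other 3 libraries (22.8 to 33.9 CPM and 4.20 to 5.92 CPM), the order also seen for ABCB1, and without HeyA8 QC ABCA3 passed the test (2.96, adjusted p = 0.000909).

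The genes around ABCB1 were higher in HeyA8-MDR over a long stretch of chromosome 7. The stretch was drawn after the values were seen, as a run of genes around ABCB1. In it the median log2 difference of 21 neighbouring genes was at least 0.5 in the vehicle pair and above 0 in the QC pair. By this choice its height, and its shares of higher or called genes, are descriptions and no test. It ran from ELAPOR2 to TRAPPC14 (GRCh38.p14, chromosome 7, 86876906 to 100158723), a length of 13.28 Mb with 78 measured genes, and ABCB1 lies at 87503017 to 87713295. In the stretch, 67 of 78 genes (85.9%) were higher in HeyA8-MDR in both pairs, against 22.4% of 460 genes on the rest of chromosome 7 and 32.3% of 11402 genes on other chromosomes. Over all genes tested, 32% were higher in both pairs. The median log2 difference in the stretch was 1.48 in the vehicle pair and 0.63 in the QC pair, and 1.80 and 0.71 after correction for GC content and length. On the side of higher coordinates the rest of the chromosome had medians of -0.61 and -0.33, and on the side of lower coordinates -0.26 and -0.13. The highest median of 21 neighbouring genes in the stretch was 2.05 in the vehicle pair, and the highest on any other chromosome was 1.01.

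**Figure D3:**
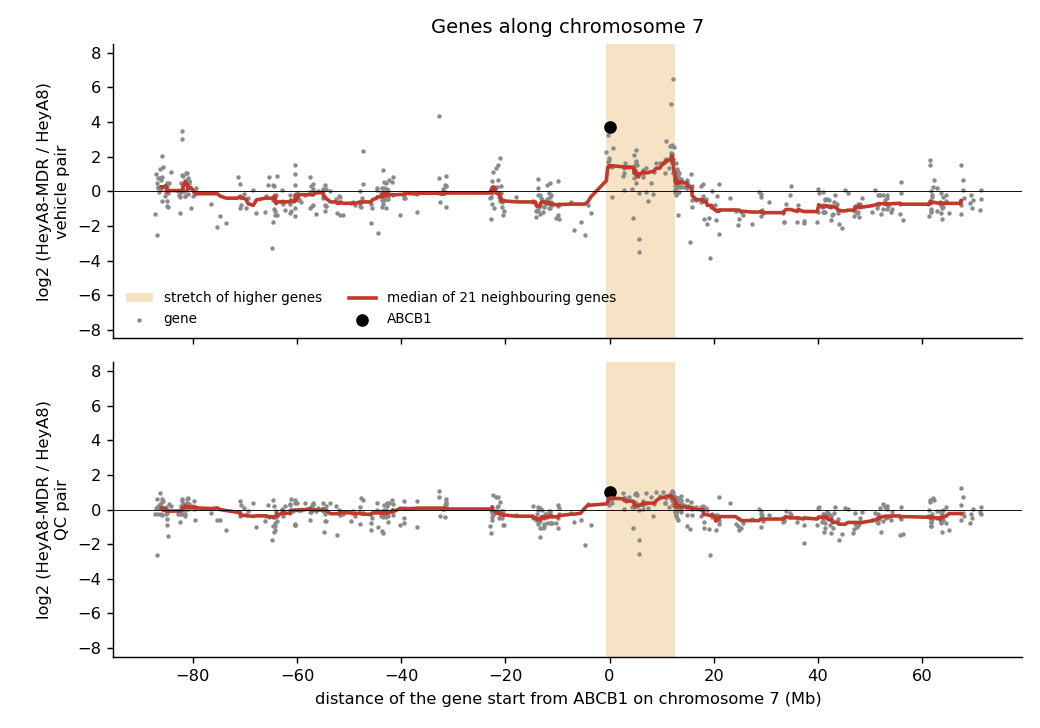
Log2 ratio of HeyA8-MDR to HeyA8 for each gene of chromosome 7 (grey points) against its distance from ABCB1 in Mb, for the vehicle pair (top) and the QC pair (bottom); the red line is the median of 21 neighbouring genes, the black point is ABCB1 and the shaded band is the 13.28 Mb stretch. The red line rises at ABCB1, stays above 0 across the band with a median of 1.48 in the vehicle pair and 0.63 in the QC pair, and falls below 0 beyond it.

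Of the 41 genes called higher over the genome, 13 lay in this stretch: ELAPOR2, DMTF1, TMEM243, CLDN12, GATAD1, BRI3, ARPC1A, ARPC1B, PTCD1, CPSF4, ZNF789, ZKSCAN5 and TRIM4. They were 13 of the 78 genes of the stretch, against 0.219% of all genes tested, a contrast that drawing the stretch on these values favours. Another 2 genes of the stretch, SAMD9 and SAMD9L, were called lower. TMEM243, a membrane protein gene a short distance from ABCB1, stood at 11.3 CPM in HeyA8 vehicle, 43.2 in HeyA8 QC, 108 in HeyA8-MDR vehicle and 98.6 in HeyA8-MDR QC (mean log2 difference 2.06 ± 0.43, adjusted p = 0.0314). ELAPOR2, a transmembrane protein gene at the near edge of the stretch, was at 18.2, 43.0, 89.5 and 85.5 CPM (1.60 ± 0.31, adjusted p = 0.0233). DMTF1, a cyclin D-binding transcription factor, was at 44.4, 85.0, 140 and 141 CPM (1.17 ± 0.25, adjusted p = 0.0333). In each of these 3 genes both HeyA8-MDR libraries were above both HeyA8 libraries.

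Those of the 13 that are not 7q21 neighbours of ABCB1 or among the 10 highest genes are named after their values were seen. ARPC1A and ARPC1B, which encode alternative subunits of the actin-nucleating ARP2/3 complex, rose by mean log2 differences of 1.45 ± 0.35 and 1.29 ± 0.28. MYH16, near the far edge, had 361, 8684, 10097 and 10130 counts in HeyA8 vehicle, HeyA8 QC, HeyA8-MDR vehicle and HeyA8-MDR QC. It was chosen after its values were seen and did not pass (adjusted p = 0.065). ASNS, the asparagine synthetase gene that the study followed, lies in the stretch too, at 4.92, 3.40, 15.3 and 6.93 CPM (log2 differences 1.62 and 1.01 in the pairs, adjusted p = 0.112). Without the HeyA8-MDR vehicle library none of the 13 genes passed, and their adjusted p-values then lay above 0.2.

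The list of 34 measured ABCB1 neighbours on 7q21, which extends past the near edge of the stretch, held 5 genes called higher and 2 called lower (20.6%, against 2.8% of all genes tested). Its medians were 1.37 in the vehicle pair and 0.42 in the QC pair, against 0 and -0.02 over all genes tested. Without HeyA8 QC, 12 of the 34 were called higher and 3 lower. CDK6, the cyclin D-dependent kinase, was at 259, 347, 365 and 402 CPM in HeyA8 vehicle, HeyA8 QC, HeyA8-MDR vehicle and HeyA8-MDR QC and did not pass (adjusted p = 0.435). SRI, the calcium-binding protein sorcin, was at 41.2, 126, 236 and 248 CPM (1.60 ± 0.45, adjusted p = 0.0827), and it passed without HeyA8 QC (2.71, adjusted p = 0.00666). The 2 members called lower were SAMD9 and SAMD9L, adjacent genes that are interferon-stimulated. SAMD9 fell from 57.5 and 22.8 CPM in HeyA8 vehicle and QC to 4.88 and 3.73 CPM in HeyA8-MDR (-3.09 ± 0.44, adjusted p = 0.00516).

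In the other pairs the same 78 genes had median log2 differences of 0.57 in vehicle and 0.65 in QC for SKOV3-TR against SKOV3, where the rest of chromosome 7 was at 0.45 and 0.50. For OV2008-C13 against OV2008 they had medians of 0.25 and 0.22, against 0 and -0.12 on the rest of the chromosome. In the test of the HeyA8-MDR difference against the mean of the other 2 pairs, 2 of the 78 genes were called higher, near the share of 2.51% over all genes tested, and 1 of them was DMTF1 (log2 1.51, adjusted p = 0.0119).

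The 10 genes highest in HeyA8-MDR among those called, with at least 50 counts in both of its libraries, included 5 long non-coding RNAs. LINC02005 had 2 counts in HeyA8 vehicle, 74 in HeyA8 QC, 140 in HeyA8-MDR vehicle and 98 in HeyA8-MDR QC, and its counts elsewhere were too few to test it against the other pairs. NKILA, a long non-coding RNA that interacts with the NF-kB complex, was at 0.532, 4.79, 11.1 and 10.1 CPM (2.53 ± 0.57, adjusted p = 0.039). PICART1 was at 3.28, 16.7, 56.7 and 29.0 CPM, SNHG19 at 2.97, 4.24, 12.6 and 11.4 CPM, and AKAP1-DT at 1.51, 2.67, 7.43 and 8.53 CPM. Without HeyA8 QC the calls of LINC02005 (adjusted p = 1) and AKAP1-DT (1.97, adjusted p = 0.104) were lost. In all of these, HeyA8 vehicle was the lowest library and both HeyA8-MDR libraries were the highest.

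PER1, a core repressor of the circadian clock, was at 6.43, 14.3, 70.0 and 23.9 CPM in HeyA8 vehicle, HeyA8 QC, HeyA8-MDR vehicle and HeyA8-MDR QC (2.10 ± 0.39, adjusted p = 0.0175). CRY2, another repressor of the clock, was also called higher (12.1, 28.4, 56.7 and 52.2 CPM, adjusted p = 0.0498) and is named after its values were seen. The membrane transporter gene SLC4A11 was at 2.17, 5.08, 13.8 and 10.1 CPM (1.75 ± 0.37, adjusted p = 0.0333). PALD1, a phosphatase-like gene, was at 1.37, 4.20, 10.8 and 7.11 CPM, and PTCD1, a mitochondrial RNA-binding protein gene in the chromosome 7 stretch, at 2.61, 6.76, 16.4 and 14.2 CPM. TMEM243, described above, completes the 10.

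Glycolysis and hypoxia-induced genes were the list with the highest number called higher outside 7q21, 2 of 36, with 0 called lower. This was 5.56%, against 0.219% of all genes tested called higher. Their median log2 difference was 0.39 in the vehicle pair and 0.56 in the QC pair. P4HA1, a subunit of collagen prolyl 4-hydroxylase, was at 82.6, 170, 255 and 350 CPM in HeyA8 vehicle, HeyA8 QC, HeyA8-MDR vehicle and HeyA8-MDR QC (1.29 ± 0.29, adjusted p = 0.0383). HK2, a hexokinase that phosphorylates glucose in the first step of glycolysis, was at 146, 132, 351 and 260 CPM (1.14 ± 0.26, adjusted p = 0.0395). Its call was lost without HeyA8 QC at a difference of like size (1.12). Without HeyA8 QC, 8 of the 36 were called higher and 1 lower. The endoplasmic reticulum chaperone genes HYOU1 and PDIA6, named after their values were seen, were called higher as well, at 139, 208, 429 and 338 CPM and at 195, 321, 654 and 555 CPM.

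The genes called lower included many that were close to silent in HeyA8-MDR. SNHG14, a long non-coding RNA of the imprinted 15q11 region, had 1055 counts in HeyA8 vehicle, 494 in HeyA8 QC, 2 in HeyA8-MDR vehicle and 1 in HeyA8-MDR QC (adjusted p = 0.00015). SNRPN, which overlaps SNHG14 so that their reads cannot be told apart with certainty, had 180, 139, 0 and 2 counts, so that it was at least 51.2-fold lower in the vehicle pair when the HeyA8-MDR library is set at a floor of 3 counts. ZNF91, a KRAB zinc finger repressor of retrotransposons, had 290, 186, 1 and 0 counts and was at least 38.3-fold lower in the QC pair. CDCP1, a transmembrane substrate of SRC kinases, fell from 173 and 100 CPM in HeyA8 vehicle and QC to 0.467 and 2.13 CPM in HeyA8-MDR (-6.81 ± 0.51, adjusted p = 0.00015).

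Another 5 of the 10 lowest genes had 0 counts in both HeyA8-MDR libraries, which allows up to 3 counts in each. XKR8, a phospholipid scramblase of dying cells, had 118 counts in HeyA8 vehicle and 76 in HeyA8 QC, and was at least 33.6-fold lower in the vehicle pair and at least 15.6-fold lower in the QC pair. The homeobox gene HDX had 104 and 60 counts in HeyA8, the lipoprotein receptor-related gene LRP3 had 94 and 63, the importin pseudogene IPO5P1 had 66 and 70, and BEX2, a small adaptor protein gene, had 56 and 52. The bounds for these 4 were 29.6, 26.8, 18.8 and 15.9-fold in the vehicle pair. Their counts in HeyA8 were low, so that these bounds reach no further at this depth. In HeyA8 QC the counts of HDX, LRP3 and XKR8 were below those in HeyA8 vehicle, though that library was the deepest of the 4.

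A set of 14 genes, found after the values were seen, was called whichever of the 4 libraries was left out, and all 14 were lower in HeyA8-MDR. It held SNHG14, SNRPN, ZNF91 and CDCP1, the collagen genes COL1A1 and COL5A1, the epithelial adhesion gene EPCAM, the interferon-stimulated gene IFIT3, the plasminogen activator inhibitor gene SERPINB2, the tetraspanin gene TSPAN15, the vesicle fusion gene VAMP8, the transporter gene SLC16A6, the junction-associated gene INAVA and the zinc finger gene ZNF569. All 14 were also called after correction for GC content and length and by DESeq2. VAMP8, for example, had 456, 361, 20 and 14 counts in HeyA8 vehicle, HeyA8 QC, HeyA8-MDR vehicle and HeyA8-MDR QC (-4.13 ± 0.32, adjusted p = 0.000151). TSPAN15 had 286, 202, 10 and 14 counts, and SLC16A6 had 1029, 885, 67 and 29 counts. The HeyA8 and HeyA8-MDR counts of these genes did not overlap, and the lowest HeyA8 count was above the highest HeyA8-MDR count by a wide margin. This separation follows largely from how the 14 were chosen, so it is a description and adds no support. The share of all genes tested with such a separation was not counted.

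**Figure D4:**
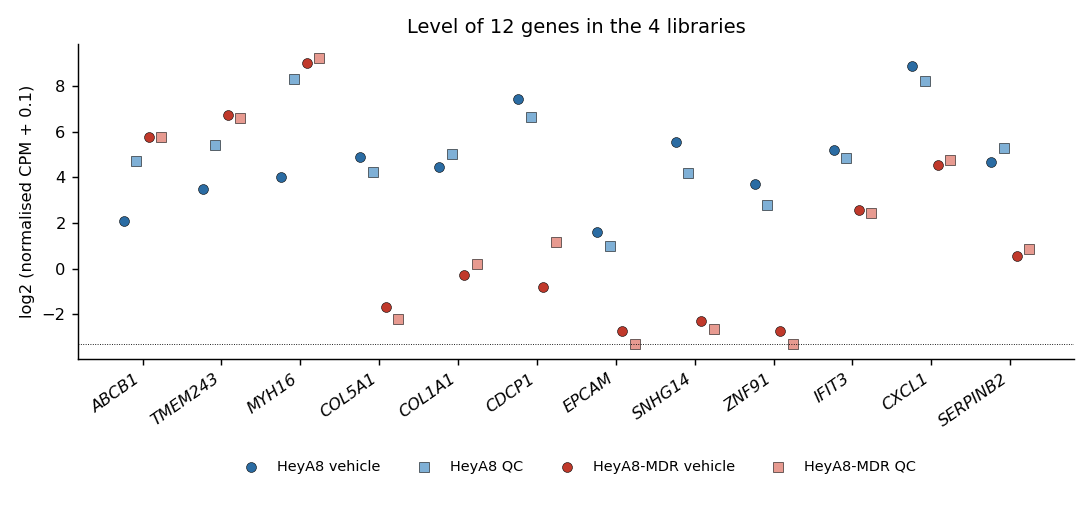
Level of 12 genes, as log2 (CPM + 0.1), in HeyA8 vehicle (dark blue circles), HeyA8 QC (light blue squares), HeyA8-MDR vehicle (dark red circles) and HeyA8-MDR QC (light red squares); the dotted line is the level of 0 counts. For ABCB1, TMEM243 and MYH16 the HeyA8 QC library lies nearer to HeyA8-MDR than to HeyA8 vehicle, and for the 9 genes from COL5A1 to SERPINB2 both HeyA8 libraries lie above both HeyA8-MDR libraries.

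Interferon-stimulated genes, which encode antiviral effectors and are switched on by interferon signalling, were the list with the highest share of called genes. Of 41 measured members, 14 were lower and 0 were higher in HeyA8-MDR (34.1%, against 2.8% of all genes tested). The median log2 difference over the 41 was -0.81 in the vehicle pair and -0.44 in the QC pair, and 28 were lower in both pairs, as were 35.9% of all genes tested. The 14 were IFIT1, IFIT2, IFIT3, IFI44, OAS2, OASL, HERC5, DDX60, PARP9, GBP1, GBP2, GBP3, SAMD9 and SAMD9L. By DESeq2 14 members were called lower, without HeyA8 QC 10 members were called lower, after correction for GC content and length 7, and without HeyA8-MDR vehicle 2. The calls lost without HeyA8 QC were those of OAS2, DDX60, PARP9 and SAMD9L. The median GC content of the list was 43.2%, against 48.1% over all genes, and genes of low GC content were lower in HeyA8-MDR in general. In 4 bins of equal gene number from low to high GC content, the median log2 difference of the vehicle pair was -0.52, -0.18, -0.003 and 0.21, and that of the QC pair -0.17, -0.11, -0.03 and 0.06. After correction the list medians were -0.68 and -0.40, and the log2 differences were -2.34 for IFIT3 and -2.36 for IFIT2.

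IFIT3, an antiviral adaptor protein, was at 36.4 CPM in HeyA8 vehicle, 28.7 in HeyA8 QC, 5.77 in HeyA8-MDR vehicle and 5.27 in HeyA8-MDR QC (-2.54 ± 0.28, adjusted p = 0.00124). IFIT2, its neighbour on chromosome 10, was at 23.0, 12.2, 2.75 and 2.96 CPM (-2.56 ± 0.33, adjusted p = 0.00278). IFIT1, which binds viral RNA lacking cap methylation, had 239, 168, 38 and 12 counts, and HERC5, the ligase that attaches ISG15, had 130, 122, 6 and 9 counts; both were chosen after their values were seen and are shown for their promoters. In all 4 genes the HeyA8 libraries were above the HeyA8-MDR libraries in both treatments. Against the mean of the other 2 pairs, the difference of IFIT3 was more negative by a log2 value of -2.66 (adjusted p = 0.000834) and that of IFIT2 by -2.80 (adjusted p = 0.00168).

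The promoters of these genes hold the interferon-stimulated response element, searched as GAAA, any 2 bases, GAAA on both strands in the 250 bases before each RefSeq gene start. It was found in 22 of the 31 listed genes with a promoter entry (71.0%) and in 8 of the 10 called ones, against 3.71% of all genes with a promoter entry. The 150 bases before the start of 3 of the called genes are printed to show the element, from RefSeq on GRCh38.p14, 5′ to 3′ on the gene's strand, with each match in capitals. The matches shown lie on the opposite strand and so read TTTC, 2 bases, TTTC. All 3 genes lie on the plus strand, IFIT1 at chr10:89392473-89392622, IFIT3 (the downstream one of its starts) at chr10:89332379-89332528 and HERC5 at chr4:88456969-88457118.
IFIT1: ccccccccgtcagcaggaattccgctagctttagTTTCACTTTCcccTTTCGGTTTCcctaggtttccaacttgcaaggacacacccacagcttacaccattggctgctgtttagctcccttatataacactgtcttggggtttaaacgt
IFIT3: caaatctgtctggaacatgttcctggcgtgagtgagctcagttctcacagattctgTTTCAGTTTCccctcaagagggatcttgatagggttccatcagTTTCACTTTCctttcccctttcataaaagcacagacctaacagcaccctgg
HERC5: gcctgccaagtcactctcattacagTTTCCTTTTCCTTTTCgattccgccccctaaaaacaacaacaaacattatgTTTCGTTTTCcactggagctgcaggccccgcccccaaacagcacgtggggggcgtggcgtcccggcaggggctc
IFIT1 and IFIT3 hold a pair of separate matches, and in HERC5 the first run of capitals is a pair of overlapping matches. A match is a description of the sequence and says nothing of binding in these cells.

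Of 31 measured cytokines, chemokines and NF-kB targets, 8 were called lower and 0 higher in HeyA8-MDR (25.8%, against 2.59% of all genes tested called lower). Their medians were -0.96 in the vehicle pair and -0.45 in the QC pair. Of the 31, 17 were lower in both pairs, 7 were higher in both and 6 went opposite ways. Over all genes tested these shares were 35.9%, 32% and 27.1%. The 8 were CXCL1, CXCL2, CXCL3, CSF3, IL18, IL24, IL1R1 and PTGS2. CXCL1, a neutrophil-attracting chemokine, was at 475 CPM in HeyA8 vehicle, 297 in HeyA8 QC, 23.2 in HeyA8-MDR vehicle and 27.1 in HeyA8-MDR QC (-3.90 ± 0.35, adjusted p = 0.000595). CSF3, the granulocyte colony-stimulating factor, was at 245, 138, 31.3 and 26.7 CPM (-2.68 ± 0.40, adjusted p = 0.00813). IL18, an interleukin activated by inflammasomes, was at 22.8 CPM in HeyA8 vehicle and at 2.92, 1.56 and 1.30 CPM in the other 3 libraries (-2.70 ± 0.46, adjusted p = 0.0124). IL18 in HeyA8 QC was close to the HeyA8-MDR libraries, whereas CXCL1 and CSF3 in HeyA8 QC lay between HeyA8 vehicle and HeyA8-MDR. After correction for GC content and length 5 members were called lower, without HeyA8 QC 8 lower and 1 higher, and without HeyA8-MDR vehicle 0.

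CXCL1, CXCL2 and CXCL3 are near-identical neighbours on chromosome 4, so their reads cannot be split with certainty. An NF-kB element, searched as GGG, any 2 bases, TTTCC on both strands in the same 250 bases, was found in 11 of 25 listed genes with a promoter entry (44%) and in 3 of the 6 called ones, against 2.12% of all genes with a promoter entry. The 3 are these CXCL genes, and 2 of their promoters are printed to show how alike they are, as 150 bases before the start from RefSeq on GRCh38.p14, with the match in capitals. CXCL1 is at chr4:73869243-73869392 on the plus strand and CXCL3 at chr4:74038690-74038839 on the minus strand.
CXCL1: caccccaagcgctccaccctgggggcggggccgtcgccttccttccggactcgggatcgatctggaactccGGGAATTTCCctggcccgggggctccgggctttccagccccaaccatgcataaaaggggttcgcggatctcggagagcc
CXCL3: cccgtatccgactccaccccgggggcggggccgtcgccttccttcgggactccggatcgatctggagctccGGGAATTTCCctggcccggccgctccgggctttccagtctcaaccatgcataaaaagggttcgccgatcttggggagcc
CXCL3, chosen after its values were seen, had 1273 counts in HeyA8 vehicle, 589 in HeyA8 QC, 94 in HeyA8-MDR vehicle and 76 in HeyA8-MDR QC (-2.96 ± 0.55, adjusted p = 0.0184).

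Drug-metabolising enzymes had 6 of 37 measured members called lower in HeyA8-MDR (16.2%, against 2.59% of all genes tested) and 0 called higher. Without HeyA8 QC 7 were called lower, and without HeyA8-MDR vehicle 0. NQO1, the quinone reductase, was at 247, 190, 49.6 and 63.1 CPM in HeyA8 vehicle, HeyA8 QC, HeyA8-MDR vehicle and HeyA8-MDR QC (-1.96 ± 0.25, adjusted p = 0.00259). The aldo-keto reductase gene AKR1C1 was at 21.9, 11.5, 3.27 and 3.67 CPM (-2.21 ± 0.30, adjusted p = 0.00392). AKR1C2, AKR1C3 and AKR1B1 were called lower too, and AKR1C1 to AKR1C3 are close paralogs whose reads may be shared. CYP1B1, a cytochrome P450 that metabolises steroids and drugs, had 35, 27, 4 and 2 counts. Among platinum-handling genes (metallothioneins, copper transporters and glutathione enzymes), 0 of 19 were called in either direction by edgeR or by DESeq2, with medians of -0.11 and -0.06. This holds for the fits with all libraries, and a call lower in HeyA8-MDR appeared without HeyA8 QC.

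Of 36 collagens, laminins and other matrix genes, 4 were called lower (COL1A1, COL5A1, COL6A3 and THBS1; 11.1%, against 2.59% of all genes tested) and 0 higher. The list medians were -0.13 in the vehicle pair and -0.10 in the QC pair. Without HeyA8 QC 4 were called lower and 3 higher, and 11 of the 36 were above 0 in both pairs. COL5A1, a fibrillar collagen chain, was at 29.5, 18.8, 0.208 and 0.118 CPM in HeyA8 vehicle, HeyA8 QC, HeyA8-MDR vehicle and HeyA8-MDR QC (adjusted p = 0.000324). COL1A1, the main chain of type I collagen and a fibroblast marker, was at 21.9, 32.5, 0.727 and 1.07 CPM (-4.94 ± 0.38, adjusted p = 0.00015). Of the 4 measured fibroblast markers COL1A1 was the one called, and their summed level was 37.9 and 39.6 CPM in HeyA8 and 6.49 and 7.17 CPM in HeyA8-MDR. THBS1, the matricellular protein thrombospondin-1, was at 655, 556, 50.3 and 72.5 CPM (-3.30 ± 0.32, adjusted p = 0.000602).

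Of 27 matrix proteases and inhibitors, 4 were called lower and 0 higher, also without HeyA8 QC, with medians of -0.17 and -0.18. The 4 called lower were 14.8% of the list, against 2.59% of all genes tested. MMP2, the gelatinase that degrades basement membrane collagen, had 476, 264, 8 and 8 counts in HeyA8 vehicle, HeyA8 QC, HeyA8-MDR vehicle and HeyA8-MDR QC (-5.02 ± 0.53, adjusted p = 0.00105). TIMP3, an inhibitor of such proteases, had 52, 28, 0 and 0 counts and was at least 14.8-fold lower in the vehicle pair and at least 5.76-fold lower in the QC pair. SERPINB2 had 581, 1053, 26 and 29 counts (-4.36 ± 0.32, adjusted p = 0.000324), and ADAMTS5 was the other one called. The protease and its inhibitor thus moved in the same direction.

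Of 43 DNA repair genes, 5 were called lower in HeyA8-MDR (BRCA1, BRCA2, BRIP1, ATM and ATR; 11.6%, against 2.59% of all genes tested) and 0 higher. Without HeyA8 QC 6 were called lower and 1 higher, and without HeyA8-MDR vehicle 0 were called. BRCA2, a gene of homologous recombination repair, was at 55.8, 16.2, 2.18 and 3.79 CPM in HeyA8 vehicle, HeyA8 QC, HeyA8-MDR vehicle and HeyA8-MDR QC (-3.58 ± 0.56, adjusted p = 0.00775). BRCA1 had 1269, 825, 308 and 212 counts (-1.60 ± 0.33, adjusted p = 0.0287) and the checkpoint kinase gene ATR at 162, 85.9, 51.5 and 45.1 CPM (-1.32 ± 0.27, adjusted p = 0.0288). After correction for GC content and length BRCA2 stayed under the threshold (adjusted p = 0.0186), whereas BRCA1 (-1.22, adjusted p = 0.0734) and ATR (-0.78, adjusted p = 0.119) did not. The genes of this list had a median transcript length of 5.22 kb and a median GC content of 44.3%, against 3.30 kb and 48.1% over all genes tested.

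Of 44 mitosis and cell cycle genes, 3 were called lower and 0 higher (6.82% lower, against 2.59% of all genes tested). Without HeyA8 QC 5 were called lower and 2 higher, and without HeyA8-MDR vehicle 0 were called. CENPF, a large kinetochore protein, was at 367, 140, 7.79 and 28.4 CPM in HeyA8 vehicle, HeyA8 QC, HeyA8-MDR vehicle and HeyA8-MDR QC (-4.03 ± 0.59, adjusted p = 0.00544). CENPE, the kinetochore motor, was at 109, 47.1, 2.55 and 5.21 CPM (-4.51 ± 0.58, adjusted p = 0.00264). The spindle checkpoint kinase gene TTK was at 64.1, 39.4, 12.5 and 21.5 CPM (-1.74 ± 0.41, adjusted p = 0.0482). CENPE and CENPF kept their calls after correction for GC content and length (adjusted p = 0.00651 and 0.0131), and TTK did not (0.0877). HeyA8 vehicle had the highest level of all 3 genes and HeyA8-MDR vehicle the lowest.

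**Figure D5:**
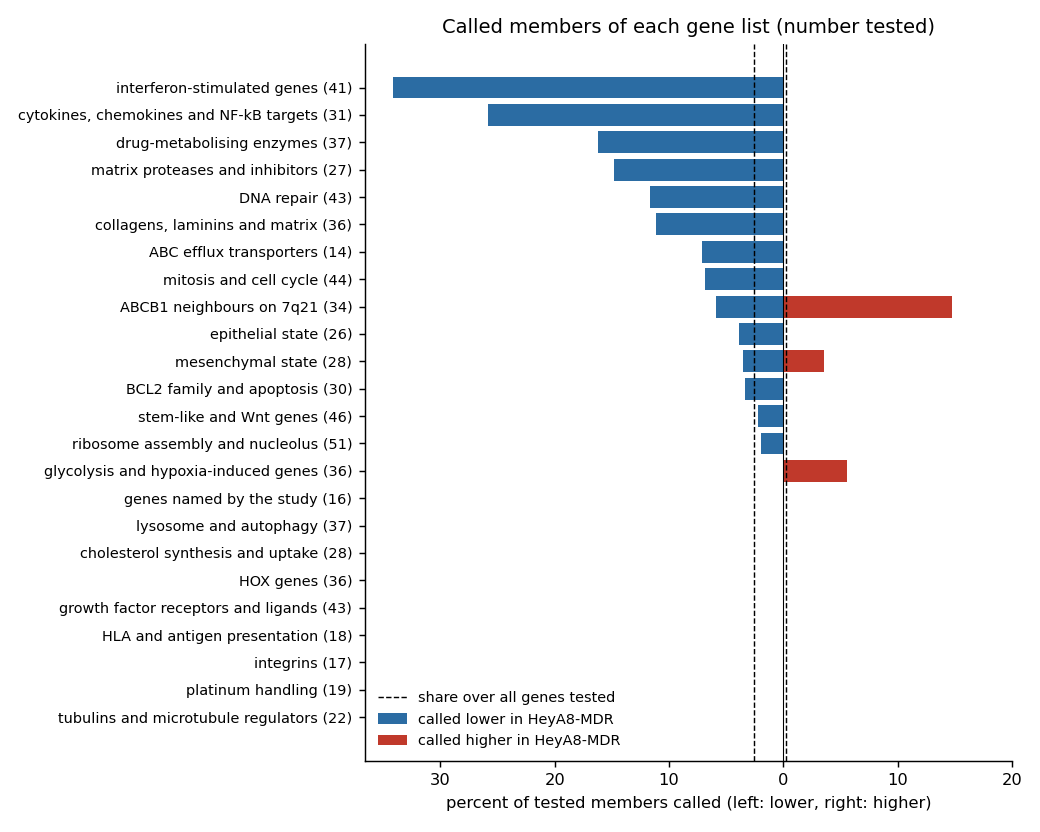
Percent of the measured members of the gene lists described here that were called lower (blue, to the left) or higher (red, to the right) in HeyA8-MDR, averaged over both treatments, with the number measured in parentheses; dashed lines mark the shares over all 18720 genes, 2.59% lower and 0.219% higher. Interferon-stimulated genes reach 34.1% lower and cytokines 25.8% lower, and the ABCB1 neighbours hold most of the red.

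Of 26 epithelial genes, with medians of 0.21 and -0.09 in the vehicle and QC pairs, 1 was called, EPCAM, with 66, 51, 1 and 0 counts in HeyA8 vehicle, HeyA8 QC, HeyA8-MDR vehicle and HeyA8-MDR QC (adjusted p = 0.00105). Of 28 mesenchymal genes, with medians of -0.50 and -0.10, 1 was called in each direction, and without HeyA8 QC 2 were called higher and 1 lower. With all libraries, 3.85% of the epithelial and 7.14% of the mesenchymal list were called, against 2.8% of all genes tested. ZEB1, a repressor of epithelial genes, was at 159, 126, 31.5 and 90.7 CPM (-1.36 ± 0.29, adjusted p = 0.0328; 0.102 after correction for GC content and length), so that the HeyA8-MDR QC library was nearer to HeyA8 than the HeyA8-MDR vehicle library was. TPM2, a muscle-type tropomyosin, was at 7.93, 15.3, 22.3 and 28.3 CPM (1.16 ± 0.28, adjusted p = 0.0498).

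In the remaining lists 0 or 1 member was called. The single calls, in the order given here, made up 3.33%, 2.17% and 1.96% of their lists, near the 2.8% of all genes tested. The single calls were BMF, a pro-apoptotic BH3-only gene, lower among 30 apoptosis genes (9.75, 19.3, 2.55 and 4.44 CPM in HeyA8 vehicle, HeyA8 QC, HeyA8-MDR vehicle and HeyA8-MDR QC; -2.05 ± 0.43, adjusted p = 0.0312), LGR4, an R-spondin receptor, lower among 46 stem-like and Wnt genes (65.9, 45.6, 20.3 and 15.0 CPM; -1.63 ± 0.28, adjusted p = 0.0121), and UTP20, a pre-ribosomal RNA processing factor, lower among 51 ribosome assembly genes (99.9, 83.6, 46.9 and 46.1 CPM; -0.98 ± 0.21, adjusted p = 0.0327). Without HeyA8 QC the calls of BMF (-1.59, adjusted p = 0.0962) and UTP20 (-1.04, adjusted p = 0.0508) were lost, and that of UTP20 was also lost after correction for GC content and length (-0.48, adjusted p = 0.233). By edgeR none was called among 22 tubulins and microtubule regulators, 17 integrins, 18 antigen presentation genes, 43 growth factor receptors and ligands, 36 HOX genes, 28 cholesterol genes, 37 lysosome and autophagy genes and 4 cancer-testis antigens. This holds for the fit with all libraries. Without HeyA8 QC, calls appeared in each of these lists except the cancer-testis antigens, and more of the stem-like and Wnt genes were called. DESeq2 called 3 antigen presentation genes lower and 1 higher, 2 growth factor genes higher and 3 lower, 2 cholesterol genes higher and 1 lower, 2 HOX genes lower, 1 integrin lower and 1 lysosome gene higher. Over all 18720 genes, 3849 had an unadjusted p under 0.05 in this comparison.

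Of 16 measured genes listed from the study, 0 were called by edgeR, and DESeq2 called 1 higher and 1 lower. The list held RPLP0, the study's reference gene for qPCR, and left out BOP1, which the study measured by qPCR. GNL3, which encodes the nucleolar protein nucleostemin, was at 112, 86.3, 92.8 and 92.0 CPM in HeyA8 vehicle, HeyA8 QC, HeyA8-MDR vehicle and HeyA8-MDR QC (mean log2 difference -0.09 ± 0.25, adjusted p = 0.902). POLR1A, the catalytic subunit of RNA polymerase I, was at 192, 85.1, 95.6 and 35.4 CPM (-1.12 ± 0.35, adjusted p = 0.109). FBL, the nucleolar methyltransferase fibrillarin, was at 113, 184, 296 and 326 CPM (1.07 ± 0.31, adjusted p = 0.0866). CDKN1A, a cyclin-dependent kinase inhibitor, was at 461, 768, 543 and 580 CPM. Without HeyA8 QC, POLR1A (-1.64, adjusted p = 0.0294) and FBL (1.67, adjusted p = 0.0204) passed the test, and GNL3 did not (adjusted p = 0.857).

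The difference between HeyA8-MDR and HeyA8 was tested against the mean of the differences in the other 2 pairs, and 1529 genes (8.17% of 18720) were called, 1060 (5.66%) more negative and 469 (2.51%) more positive in the HeyA8 family. COL1A1, THBS1, SNHG14, SNRPN, CDCP1, TSPAN15 and NQO1 were among the more negative, with log2 values of -5.69, -4.69, -9.34, -7.36, -5.76, -4.70 and -3.23 and adjusted p-values at or under 0.000168. THBS1 shows the contrast plainly: SKOV3-TR was above SKOV3 by log2 differences of 3.98 and 3.96 in vehicle and QC, and OV2008-C13 below OV2008 by -0.82 and -1.52. COL5A1 was lower in the resistant line of all 3 families, by -2.60 and -2.68 in SKOV3-TR and -3.79 and -5.33 in OV2008-C13, and its difference in the HeyA8 family did not pass against the others (adjusted p = 0.0849). PER1 and ELAPOR2 did not pass either (adjusted p = 1 and 0.975), and PER1 was higher in SKOV3-TR than in SKOV3 by 3.90 and 3.64.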

How the data were processed

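RNA from 6 ovarian cancer cell lines, each with vehicle or QC, was sequenced from polyA-selected libraries, 1 library for each of the 12 combinations. The deposited values were raw read counts per gene that the authors made with HTSeq. The submitters' processing notes name STAR 2.7.3a, HTSeq 0.6.1p1 and GRCh38.p13, whereas the study's methods name TopHat and hg19, so the aligner and build of these counts are not settled by the sources used here. Whether counting used strand is not given in the sources used here. The file held 60669 gene identifiers, of which 58663 matched a symbol, and the 2006 without a symbol took 0.132% of counts. Gene coordinates and promoters came from RefSeq on GRCh38.p14.

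Counts were tested with edgeR 4.0.16 (quasi-likelihood, TMM normalisation, R 4.3.3) on the 18720 genes that passed its expression filter, with a term for each line and separate QC effects for the sensitive and the resistant group (4 residual degrees of freedom). P-values were adjusted by Benjamini-Hochberg over all genes tested, and an adjusted p under 0.05 was called. The main contrast was HeyA8-MDR minus HeyA8 averaged over treatments. The QC pair was set against the vehicle pair in a fit with a line by treatment term in the HeyA8 family, and the HeyA8 family difference against the mean of the other 2 pairs in the main fit. Log2 differences of single pairs used TMM-scaled CPM with a prior count of 2, and values after ± are standard errors. Fold bounds for genes at 0 used a floor of 3 counts per library, which covers counting error only. Named genes were ABCB1, the 10 highest and 10 lowest called genes (mean log2 difference; at least 50 counts in both libraries of the higher line), up to 3 called genes per list and direction, the 7q21 neighbours, the genes the study follows and the 10 genes of smallest p between pairs; others are said to be chosen after their values were seen. The members and the gene lists were chosen with earlier results of these data known. Alternatives were other normalisations and filters, a correction for GC content and length, leaving out each library, other QC terms, the 4 libraries alone, and DESeq2 1.42.0. The fit was tested on simulated data. Some items are not reported here.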

Additional observations from a re-analysis of the deposited data

Results flagged for a closer look

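For the genes given here, all named in the report, the log2 difference between HeyA8-MDR and HeyA8 departed from the mean difference of the other 2 resistant and sensitive pairs at an adjusted p under 0.05 by edgeR, a call that 8.17% of all genes tested received. The values below are the difference in the HeyA8 family less that mean, on the log2 scale.

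Matrix, protease and adhesion genes were more negative in the HeyA8 family, with COL1A1 at -5.69, THBS1 at -4.69, MMP2 at -4.76, EPCAM at -4.09, COL6A3 at -5.23, PAPPA2 at -4.99, CDCP1 at -5.76 and TSPAN15 at -4.70. TIMP3 was at -12.7, a fitted value that depends on the prior count because HeyA8-MDR and SKOV3 both had 0 counts. In the HeyA8 family alone its fitted mean log2 difference was -8.20. Interferon-stimulated genes were at -2.66 for IFIT3, -2.80 for IFIT2, -3.20 for IFIT1, -3.93 for HERC5, -4.04 for OASL, -2.58 for DDX60, -5.35 for IFI44, -1.69 for GBP3, -1.86 for SAMD9 and -2.09 for SAMD9L. Cytokine genes were at -4.77 for CXCL1, -2.68 for CXCL2, -3.62 for CXCL3, -3.47 for PTGS2 and -3.31 for IL18. Drug metabolism and efflux genes were at -3.23 for NQO1, -2.15 for AKR1B1, -2.06 for AKR1C1, -3.07 for AKR1C2, -1.47 for AKR1C3 and -2.65 for ABCG2.

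DNA repair and mitosis genes were at -1.63 for BRCA1, -3.81 for BRCA2, -2.08 for BRIP1, -4.61 for CENPE, -4.37 for CENPF and -2.20 for TTK. The genes close to silent in HeyA8-MDR were at -9.34 for SNHG14, -7.36 for SNRPN, -7.83 for LRP3, -5.74 for BEX2, -7.34 for XKR8, -4.46 for INAVA and -4.11 for ZNF569, and those fitted against 0 counts carry the same limit as TIMP3. Some of the genes given here were also lower in another resistant line than in its parent. BEX2 was lower by -1.89 and -3.02 in SKOV3-TR and by -3.12 and -3.71 in OV2008-C13, in vehicle and QC. LRP3 was lower in both of these lines too. In SKOV3-TR, XKR8 was lower by -3.70 and -3.53 and EPCAM by -4.06 and -3.67. AKR1C1 was lower there by -3.92 and -2.97, VAMP8 by -3.16 and -3.06 and SAMD9L by -2.98 and -2.31. CXCL1 was lower by -2.62 and -1.58, CDCP1 by -1.90 and -1.52 and INAVA by -1.69 and -1.56. In OV2008-C13, AKR1C1 was higher by 3.10 and 3.12 and SAMD9L by 0.63 and 4.23. Among others, COL1A1, THBS1, MMP2, TSPAN15 and IL18 were higher in SKOV3-TR than in SKOV3. SNHG14 and SNRPN were higher in both SKOV3-TR and OV2008-C13. The remaining negative values were -2.45 for VAMP8, -3.73 for SLC16A6, -2.13 for BMF, -2.19 for ZEB1 and -1.36 for LGR4. More positive in the HeyA8 family were NKILA at 2.67, TPM2 at 2.54, SLC4A11 at 2.06, PALD1 at 2.02, DMTF1 at 1.51 and HYOU1 at 1.5.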

How the results depend on the processing

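The 525 genes called kept their direction in each alternative that tested them (429 of them with at least 10 counts per library), except 1 gene without HeyA8-MDR vehicle. Their number moved more. It was 1658 with no expression filter (386 higher, 1272 lower; 23.3% of calls higher against 7.81%), 273 after correction for GC content and length (56 higher, 217 lower; 20.5% higher; all 273 in the same direction in both pairs), 606 from the 4 HeyA8 and HeyA8-MDR libraries alone (129 higher, 477 lower; 21.3% higher) and 1296 by DESeq2 (349 higher, 947 lower; 26.9% higher; 1295 in the same direction). Genes called higher numbered 22 with library size alone, 84 with 1 QC effect for all lines and 12 with no QC term.

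Leaving out 1 library gave 15 to 1091 genes called, 0 to 346 higher and 15 to 745 lower. The calls numbered 58 without HeyA8 vehicle, 1091 without HeyA8 QC (31.7% higher), 15 without HeyA8-MDR vehicle and 57 without HeyA8-MDR QC; each of these fits leaves 1 line with a single library that is assumed to vary like the other lines. Against the other pairs, 2447 genes were called with no filter, 2419 by DESeq2 and 377 to 1574 with 1 library left out. Between the QC and vehicle pairs, 136 genes were called with no filter and 101 by DESeq2, and 819 had an unadjusted p under 0.05 when every HeyA8 and HeyA8-MDR library had at least 10 counts.

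Counts of genes at least 2-fold apart followed the filter. With no filter they were 11472 in the vehicle pair, 5847 in the QC pair, 916 higher in both, 1270 lower in both, 436 higher with vehicle and lower with QC, and 289 the other way. With at least 10 counts they were 2977, 844, 113, 420, 8 and 4. A prior count of 0.5 gave 236 genes higher with vehicle and lower with QC, and library size alone gave 38 the other way. Among 113 genes named in the report, under the alternatives that tested each of them, 1045 values kept direction and call, 347 lost the call, 37 gained it and 12 changed sign; the last belong to 4 genes that were not called. The mean log2 difference of ABCC1 was 0.017 with DESeq2 size factors, 0.0062 with at least 10 counts, 0.0153 after correction for GC content and length, 0.0009 from the 4 libraries alone, 0.0169 by DESeq2 and -0.138 to 0.096 with 1 library left out. That of GNL3 was 0.0644 after correction for GC content and length. With 1 library left out, CDKN1A ran from -0.48 to 0.35 and RPL26P19 from -1.42 to 2.58. The cause of these shifts beyond the number of genes or samples tested was not tested. No analysis by replicate block was possible because each line and treatment has 1 library, so that there is no replicate number. The reported fit has separate QC effects for sensitive and resistant lines. It has no term shared by the HeyA8 and HeyA8-MDR libraries of the same treatment.

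With 1 library per line and treatment, no biological replicate of HeyA8 or HeyA8-MDR bears on the p-values. Those of the mean difference rest on how the QC response varied among lines, HeyA8 and HeyA8-MDR included. Those of the QC pair against the vehicle pair rest on the spread of the other lines.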
